A study of Homo sapiens with 6 samples.

Results

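The 46 genes described here encode the machinery by which a newly made protein enters the endoplasmic reticulum (ER): the signal recognition particle (SRP) and its receptor, the SEC61 translocon with SEC62 and SEC63, the TRAP and TRAM proteins, signal peptidase, oligosaccharyltransferase and the ER membrane protein complex (EMC). The genes were taken as a list of names, by a rule that uses no measured value, and all 46 were found among the 57905 genes of the count files. The list was chosen with earlier results of these data known, so shares of members set beside those of all genes are descriptions. The RNA came from NCI-H929 (H929), a human multiple myeloma cell line, a tumour of antibody-secreting plasma cells. In each reaction, 5 µg of purified total RNA was kept for 1 h at 37 °C with 2 µg of recombinant human IRE1 (ERN1, amino acids 467 to 977), and heating to 95 °C during 5 min ended the reaction. Controls went through the same incubation without the enzyme. There were 3 IRE1-treated and 3 control samples, described in the series as biological replicates of 1 cell line, and each gave 1 library of poly(A)-containing mRNA. The reaction held purified RNA and a truncated enzyme and no living cell, so a difference between the groups is a difference between tubes of RNA and not a response of a cell.

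Proteins bound for secretion or for membranes are recognised by SRP as their signal sequence leaves the ribosome and are handed to the SRP receptor on the ER surface. They pass through the SEC61 channel, signal peptidase cuts off the signal, and oligosaccharyltransferase adds the N-linked glycan during or soon after passage, while EMC inserts part of the membrane proteins. Plasma cells depend on this route because they secrete antibody in bulk. IRE1 is the ER stress sensor that cuts XBP1 mRNA for splicing and that also cuts other mRNAs, a process called regulated IRE1-dependent decay (RIDD). The comparison of the groups asks which mRNAs the enzyme cuts. A cut mRNA loses the piece on its 5′ side when poly(A)-containing RNA is purified, and the count of a gene adds the reads of all its exons, so a cut near the 5′ end takes away only part of a gene's reads.

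The sequences at which IRE1 cuts are known from its substrates: the core CUGCAG, or more widely CNGCAG, in the loop of a small hairpin. Matches were searched in the longest protein-coding transcript of each gene (GENCODE release 44 on GRCh37), and each match was folded with 15 bases on either side. The windows below are shown because they are from the substrates used to check the reaction (XBP1 and BLOC1S1), from a member that was lower after incubation with IRE1 (STT3B), and from members with the same kind of match that were not lower (EMC10 and SPCS1). All are RNA of the gene's own strand, written 5′ to 3′, with the motif in capitals and 12 bases on either side.
XBP1, chr22:29192126-29192155, minus strand: ggucugcugaguCCGCAGcacucagacuac
XBP1, chr22:29192100-29192129, minus strand: cuacgugcaccuCUGCAGcaggugcaggcc
BLOC1S1, chr12:56110729-56110758, plus strand: gagaggcuaucaCUGCAGcgaccugccuga
STT3B, chr3:31658511-31658540, plus strand: guguaucacuagCUGCAGgugcuguguucc
EMC10, chr19:50987171-50987200, plus strand: uucuuucuccacCUGCAGgagauagcuuau
EMC10, chr19:50988191-50988220, plus strand: uccccugguaugCUGCAGauacucuccaca
SPCS1, chr3:52743125-52743154, plus strand: aggaggcguaggCUGCAGugagccaagauc

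Both XBP1 windows lie in the coding sequence of exon 4 of 5, and their motifs folded into loops of 6 and 7 bases. The BLOC1S1 window is coding sequence of exon 2 of 3, with a predicted loop of 8 bases. The STT3B window is coding sequence of exon 7 of 16 and has a predicted loop of 7 bases, the loop size of the XBP1 CUGCAG match. The EMC10 matches, both in loops of 7 bases, and the SPCS1 match, in a loop of 6 bases, lie in the 3′ UTR of the last exon, exon 7 of 7 in EMC10 and exon 4 of 4 in SPCS1. The EMC10 matches start at bases 2494 and 3514 of an annotated transcript of 9439 bases, and the SPCS1 match at base 1759 of 3786. Which transcripts the RNA held was not examined, so it may lack these stretches. A match and a predicted loop describe the sequence and do not show that it is cut.

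The libraries held from 19615715 to 25678499 counts assigned to genes. Of the plasma cell markers, SDC1 held 23598 to 25705 and JCHAIN 82695 to 96975 normalised counts (counts scaled to a common library size by TMM) over the 6 libraries. Of 10 markers of T cells, monocytes, red cells, fibroblasts and epithelium, 8 stayed under 15 normalised counts in every library, while CD3E held 899 to 1179 and KRT8 111 to 145. As a check of the reaction, BLOC1S1 had 607, 584 and 651 normalised counts in the controls and 276, 230.4 and 212 after incubation with IRE1, a log2 fold change of −1.36 ± 0.09 (SE, n = 3 per group, adjusted p = 1.25e-06 in the quasi-likelihood test of edgeR, Benjamini-Hochberg adjustment). XBP1 had 61124, 58538 and 59921 in the controls and 57376, 56865 and 54174 after incubation, so its groups did not overlap, and its log2 fold change of −0.09 ± 0.04 did not pass the threshold (adjusted p = 0.143). Without IRE1-treated replicate 1, XBP1 passed it at −0.11 (adjusted p = 0.0277). In the study, quantitative PCR across the cut sites gave markedly lower XBP1 and BLOC1S1. Its XBP1 reads were lower in exons on the 5′ side of the sites and similar in exons on the 3′ side. The gene count used here adds both and is thus a different measure.

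In the control RNA the ER-entry genes were high as a group. Levels of different genes were compared as RPKM, computed here from the counts and the TMM-scaled library sizes, with the union of annotated exons as the length. The median of the 46 genes was 33.95 on this scale, against 3.27 for the 14111 tested genes with a length, 26 of 46 stood among the highest 10% of these genes, and 44 stood above their median. Exon unions of several members hold retained introns, so the levels were also computed with the longest and the canonical transcript. The members' median was then 66.5 and 80.3, against 4.90 and 5.29 for tested genes, and 28 of 46 stood in the highest 10% with either length. The 46 genes together held 1.378 to 1.396% of the counts on genes in every library.

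**Figure D1:**
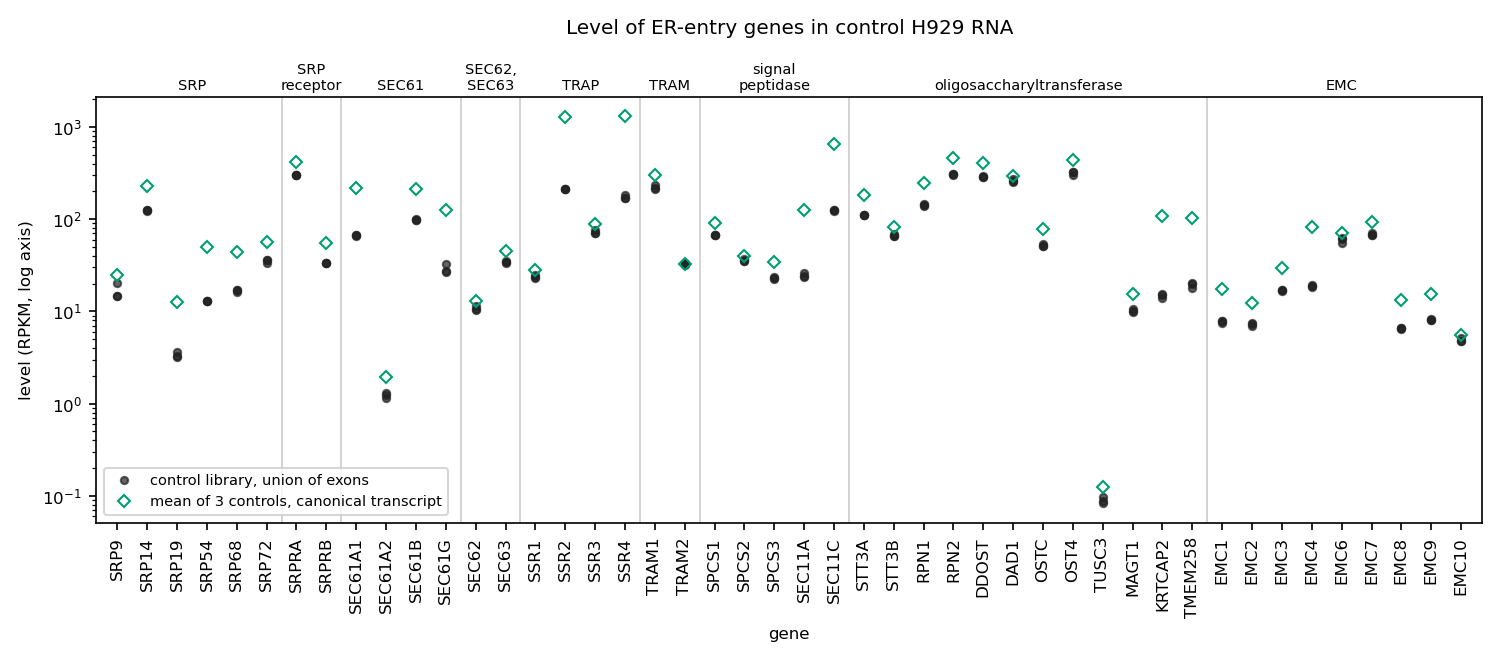
Level of each of the 46 ER-entry genes in control RNA, in RPKM on a log axis, grouped by complex. Filled points are the 3 control libraries with the union of exons as length, and open diamonds are the mean of the 3 controls with the canonical transcript as length. Among the filled points, OST4, RPN2, SRPRA, DDOST, DAD1, TRAM1 and SSR2 stand near the top. Among the diamonds, SSR4, SSR2 and SEC11C are highest. TUSC3 and SEC61A2 stand far below the rest.

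Within the complexes, only orders that held under both the exon union and the canonical transcript are given, with RPKM values on the exon union as mean ± SD of the 3 controls. Among SRP proteins, SRP14 was highest (125 ± 1.46) and SRP19, which helps to load SRP54 onto the SRP RNA, was lowest (3.36 ± 0.252). SRP14 and SRP9 bind the SRP RNA as a heterodimer, and SRP9 reached 16.6 ± 3.18, with 1 control library above the other controls. The SRP receptor subunit SRPRA, which binds SRP, was at 300.1 ± 2.01 and its membrane anchor SRPRB at 33.7 ± 0.177.

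SEC61A1, the pore of the channel, reached 66.4 ± 0.697, and its paralog SEC61A2 reached 1.23 ± 0.0726. The small subunits SEC61B and SEC61G stood at 98.2 ± 1.46 and 28.8 ± 3.22, and which of SEC61A1 and SEC61B is higher depended on the length used. SEC63, which recruits the lumenal chaperone BiP to the channel, was at 34.2 ± 0.851 and its partner SEC62 at 10.8 ± 0.482. In TRAP, a complex beside the channel that aids translocation, SSR2 (212 ± 1.38) and SSR4 (174 ± 7.23) were above SSR3 (72.7 ± 2.48) and SSR1 (23.8 ± 0.663). SSR2 and SSR4 exchanged places, with overlapping ranges, when the canonical transcript was the length.

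In signal peptidase, the catalytic subunit SEC11C was highest (125 ± 1.30) and the accessory subunit SPCS3 was lowest (23.2 ± 0.580). In oligosaccharyltransferase, OST4, RPN2, DDOST and DAD1 were the highest members (319 ± 13.7, 305 ± 3.10, 289 ± 5.80 and 261 ± 9.07), and the ranges of OST4 and RPN2 overlapped. RPN1 and the catalytic subunit STT3A followed at 143 ± 2.47 and 111 ± 0.579. MAGT1, an oxidoreductase subunit of the STT3B form of the enzyme, was at 10.1 ± 0.351, and TUSC3, its paralog, was at 0.08975 ± 0.00745, the lowest of the 46 genes. In EMC, EMC7 was highest (68.7 ± 1.73) and EMC10 lowest (4.93 ± 0.230), and on the exon union the ranges of EMC1 and EMC2 overlapped. The place of EMC10 rests on a long annotation, 10749 bases of exon union and 9439 of canonical transcript. Its mean of 1181 normalised counts in the controls lay between those of EMC6 (1029) and EMC3 (1565).

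The RefSeq promoters of GRCh38.p14, from 250 bases before to 50 bases after a start site, gave 47 entries for 39 of the members. Those of EMC2, RPN1, SPCS1, SRPRA, STT3B, TRAM1 and TUSC3 were not matched. TGACGTGG, the core of the UPR element, was found on either strand in 4 entries (8.51%), those of SEC62, SRP19, SSR3 and SSR4, against 0.729% of all 35116 entries. CCACG, part of the ER stress response element ERSE, was in 57.4% of the members' entries and 38.1% of all entries, and the whole ERSE (CCAAT and CCACG 9 bases apart) was in 0 of 47 and in 27 of all entries (0.0769%). These are matches of letters, and binding was not measured.

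After incubation with IRE1, 19 of the 46 members (41.3%) were higher and 3 (6.52%) were lower in the quasi-likelihood test of edgeR, with p-values adjusted (Benjamini-Hochberg) over the 14398 genes tested, and 24 did not pass the threshold of 0.05. The 46 genes all passed the filter on low counts. A reaction of purified RNA with IRE1 makes no new RNA, and counts are relative to the other genes of a library. Higher therefore means higher relative to those genes after scaling, and not a gain of the mRNA. Over all genes tested, 10.3% were higher and 12.4% lower (22.7% in either direction). The median log2 fold change of the members was 0.11 and the extremes were −0.29 and 0.45, against a median of 0.00 for all genes. In 24 members every IRE1-treated library was above every control (19.1% of all genes), and in 4 every IRE1-treated library was below (20.0% of all genes). The counts depended on the scaling and on single libraries. So did those over all genes, 1489 higher and 1781 lower in the fit above, with those of the other fits in the last section. The counts of members below therefore do not show by themselves whether the members moved apart from other genes. Without the TMM factor, 10 members were higher and 5 lower. Without control replicate 2, 10 were higher and 1 lower, and without control replicate 1, 11 were higher and 1 lower. Without IRE1-treated replicate 2 they were 14 and 1, and without IRE1-treated replicate 3 they were 20 and 5.

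**Figure D2:**
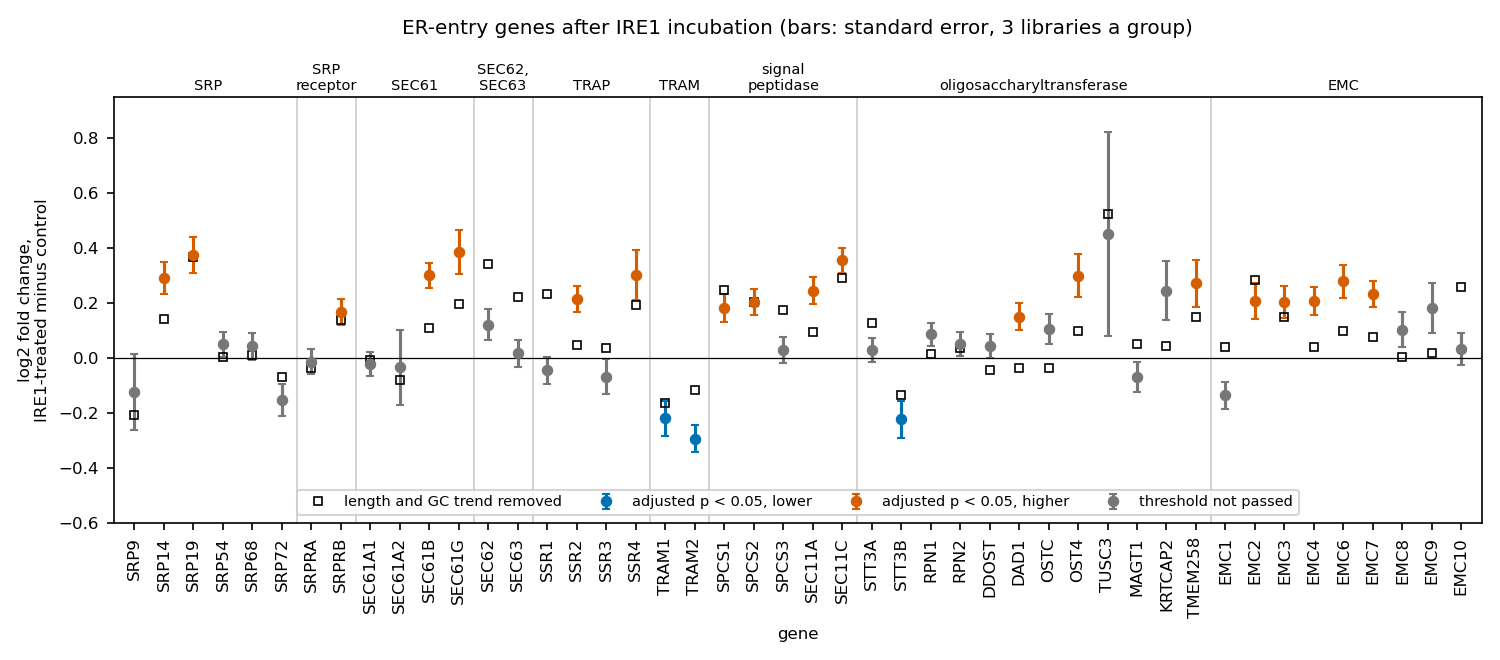
Log2 fold change of the 46 genes, IRE1-treated minus control, with its standard error (3 libraries in each group), grouped by complex. Orange marks members that were higher, blue members that were lower and grey members past no threshold, and open squares are the same contrast corrected in each library for the trend of counts with length and GC content. Both TRAM genes and STT3B lie below 0, and 4 of 5 signal peptidase genes and 5 of 9 EMC genes are orange.

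The 3 members that were lower were TRAM2, TRAM1 and STT3B. TRAM1 and TRAM2 are related membrane proteins, and TRAM1 lies beside the channel and contacts signal sequences. TRAM2 (chr6:52362206-52441858, minus strand, GRCh37) gave 5291, 5065 and 4977 normalised counts in the controls and 3967, 4143 and 4392 in the IRE1-treated samples, a log2 fold change of −0.29 ± 0.05, adjusted p = 0.000941. TRAM1 gave 19906, 21339 and 19565 in the controls and 15998, 16644 and 19532 after incubation (−0.22 ± 0.06, adjusted p = 0.0219). For TRAM2 the groups were well apart, while for TRAM1 and STT3B the highest IRE1-treated library, replicate 3, came close to the lowest control. STT3B (chr3:31574130-31679108, plus strand), the catalytic subunit of the form of oligosaccharyltransferase that also glycosylates after translation, gave 7346, 7737 and 7275 in the controls and 5606, 6390.4 and 7141 after incubation (−0.22 ± 0.07, adjusted p = 0.0265). TRAM2 remained past the threshold without each of the 6 libraries in turn, TRAM1 without 3 of them and STT3B without 2. Of the 22 members past the threshold, 10 remained so without each library in turn, namely TRAM2, SRP14, SRP19, SEC61B, SEC61G, SSR2, SEC11A, SEC11C, EMC6 and EMC7.

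SRP14 and SRP19 were higher among the 6 SRP proteins, and SRP9, SRP54, SRP68 and SRP72 did not pass the threshold. SRP19 (chr5:112196885-112234068, plus strand) had 855, 746 and 762 normalised counts in the controls and 1053, 1003 and 1011 after incubation (0.37 ± 0.07, adjusted p = 0.00105). SRP14 had 5787, 5701 and 5656 in the controls against 7753, 6737 and 6484 after incubation (0.29 ± 0.06, adjusted p = 0.00277). In both genes all IRE1-treated libraries were above all controls, with replicate 1 the highest. SRP54, the subunit that binds the signal sequence, had a log2 fold change of 0.05 ± 0.05, and SRP68 and SRP72, a pair that binds the SRP RNA, had 0.04 ± 0.05 and −0.15 ± 0.06. For SRP9 the libraries overlapped, with 732, 1000.2 and 724 in the controls and 560.3, 785 and 895 after incubation. The RNA of the particle is not polyadenylated. The SRP RNA gene RN7SL2 held 47.4 to 121 normalised counts in the controls and 72.9 to 290 after incubation (log2 fold change 1.09, adjusted p = 0.0843), with the highest values in control replicate 2 and IRE1-treated replicate 3.

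Of the receptor subunits, SRPRB had 3160.3, 3155 and 3129 normalised counts in the controls and 3598, 3603 and 3398 after incubation (0.17 ± 0.05, adjusted p = 0.0182). SRPRA had 27775, 27516 and 27876 in the controls and 28623, 27020.1 and 26747 after incubation, a log2 fold change of −0.01 ± 0.04 (adjusted p = 0.866). The SRPRA libraries overlapped and those of SRPRB did not.

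In the SEC61 channel the small subunits were higher and the pore subunits did not pass the threshold. SEC61B had 2628, 2614 and 2688 normalised counts in the controls and 3278, 3275 and 3213 after incubation (0.30 ± 0.05, adjusted p = 0.00041). SEC61G had 1121, 1331 and 1087 in the controls against 1723, 1423 and 1488 after incubation (0.39 ± 0.08, adjusted p = 0.00311). Both were above the controls in all IRE1-treated libraries, with a narrow spread in SEC61B and a wide one in SEC61G. SEC61A1 had 17430.2, 17106 and 17409.7 in the controls and 17174, 17103 and 16862 after incubation (log2 fold change −0.02 ± 0.04, 95% confidence interval −0.11 to 0.07). SEC61A2 had 101, 108 and 113 in the controls against 118, 91.9 and 105 after incubation (−0.04 ± 0.14). SEC62 had 1997, 1836 and 1869 in the controls against 2226, 2003 and 1983 after incubation, and SEC63 had 6534, 6714 and 6389 in the controls against 6972, 6312 and 6583 after incubation. The groups of all 4 genes overlapped.

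In TRAP, SSR2 and SSR4 were higher and SSR1 and SSR3 did not pass the threshold. SSR2 had 31578, 31169 and 31365 normalised counts in the controls and 38368, 36495 and 34330.0 after incubation (0.21 ± 0.05, adjusted p = 0.00479). SSR4 had 17316, 17108 and 18472 in the controls against 26566, 20079 and 18599 after incubation (0.30 ± 0.09, adjusted p = 0.0269), and IRE1-treated replicate 1 stood far above the others. Without that library the log2 fold change of SSR4 was 0.14 (adjusted p = 0.016). SSR1 overlapped between the groups, with 5889, 6197 and 5928 in the controls and 5494, 5862 and 6095 after incubation, and SSR3 also overlapped (log2 fold change −0.07 ± 0.06).

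Of the 5 signal peptidase genes, 4 were higher, SEC11A, SEC11C, SPCS1 and SPCS2. SEC11C (chr18:56807098-56826064, plus strand) had 11507, 11482 and 11289.7 normalised counts in the controls and 15197, 14333 and 14314 after incubation (0.35 ± 0.04, adjusted p = 0.000134). SEC11A, the other catalytic subunit, had 3169.6, 2915 and 2988 in the controls against 3584, 3621 and 3552 after incubation (0.25 ± 0.05, adjusted p = 0.00231). In both genes all IRE1-treated libraries lay above all controls. SPCS1, an accessory subunit, had 7631, 7614 and 7755 in the controls against 8030.3, 9075 and 8948 after incubation (0.18 ± 0.05, adjusted p = 0.0193). SPCS2, another accessory subunit, had 2456, 2343 and 2306 in the controls against 2732, 2709.6 and 2738 after incubation (0.20 ± 0.05, adjusted p = 0.00679). IRE1-treated replicate 1 was the lowest of its group in SPCS1, whereas the treated values of SPCS2 were nearly equal. SPCS3 had 3517, 3619.9 and 3444 in the controls and 3698, 3554 and 3537 after incubation, with overlapping groups (0.03 ± 0.05).

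Of the 12 oligosaccharyltransferase genes, the small subunits DAD1, OST4 and TMEM258 were higher, STT3B was lower, and 8 did not pass the threshold. DAD1 had 4343, 4335 and 4605 normalised counts in the controls and 4962, 5038 and 4741 after incubation (0.15 ± 0.05, adjusted p = 0.0334). OST4 had 4049.9, 4358 and 4377 in the controls against 6154, 4958 and 4625 after incubation (0.30 ± 0.08, adjusted p = 0.0132). TMEM258 had 1247, 1354 and 1389.7 in the controls against 1898, 1428 and 1495 after incubation (0.27 ± 0.08, adjusted p = 0.0314). OST4 and TMEM258 were highest in IRE1-treated replicate 1, and without it their log2 fold changes were 0.17 (adjusted p = 0.00663) and 0.14 (adjusted p = 0.0772). KRTCAP2, a small subunit of the STT3A form, had its highest value in the same library (1885 normalised counts) and an adjusted p of 0.115. The large subunits stayed near 0 on the log2 scale, with RPN1 at 0.09 ± 0.04, RPN2 at 0.05 ± 0.04 and DDOST at 0.04 ± 0.04. STT3A had 18228, 18361 and 18177 in the controls and 18665, 18399 and 18788 after incubation (0.03 ± 0.04). MAGT1 had 1526, 1593 and 1489 in the controls against 1409, 1445 and 1536 after incubation, and TUSC3 had 10.1, 9.65 and 11.3 in the controls against 13.2, 9.51 and 19.4 after incubation. The groups of MAGT1 and TUSC3 overlapped, and the TUSC3 log2 fold change of 0.45 ± 0.37, the largest of the 46, rested on fewer than 20 normalised counts in every library.

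Of the 9 EMC genes, EMC2, EMC3, EMC4, EMC6 and EMC7 were higher and none was lower. EMC6 had 956, 1087 and 1044 normalised counts in the controls and 1268, 1201 and 1271 after incubation (0.28 ± 0.06, adjusted p = 0.00439). EMC7 had 2283, 2197 and 2178 in the controls against 2629, 2617 and 2587 after incubation (0.23 ± 0.05, adjusted p = 0.00268). EMC3, which with EMC6 forms the membrane-inserting core, had 1602, 1526 and 1569 in the controls against 1947, 1791 and 1679 after incubation (0.20 ± 0.06, adjusted p = 0.0193). The EMC7 values were tight in both groups and those of EMC3 were spread after incubation. EMC4 had 1859.6, 1813 and 1898 in the controls against 2232, 2125 and 2072 after incubation (0.21 ± 0.05, adjusted p = 0.00856). EMC2, on the cytosolic side, had 981, 1015 and 946 in the controls against 1039, 1140.3 and 1212 after incubation (0.21 ± 0.06, adjusted p = 0.0298), and its IRE1-treated replicate 1 lay just above the controls. EMC8 and its paralog EMC9 were above the controls in all IRE1-treated libraries without passing the threshold. EMC8 had 589, 576 and 585 in the controls and 639, 619 and 621 after incubation. EMC9 had 283, 283 and 293 in the controls against 356, 308 and 312 after incubation. EMC1, the large lumenal subunit, was below the controls in every IRE1-treated library (−0.14 ± 0.05, adjusted p = 0.0542). EMC10 had 1154, 1244 and 1145 in the controls against 1274, 1201 and 1150.0 after incubation with overlapping groups.

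**Figure D3:**
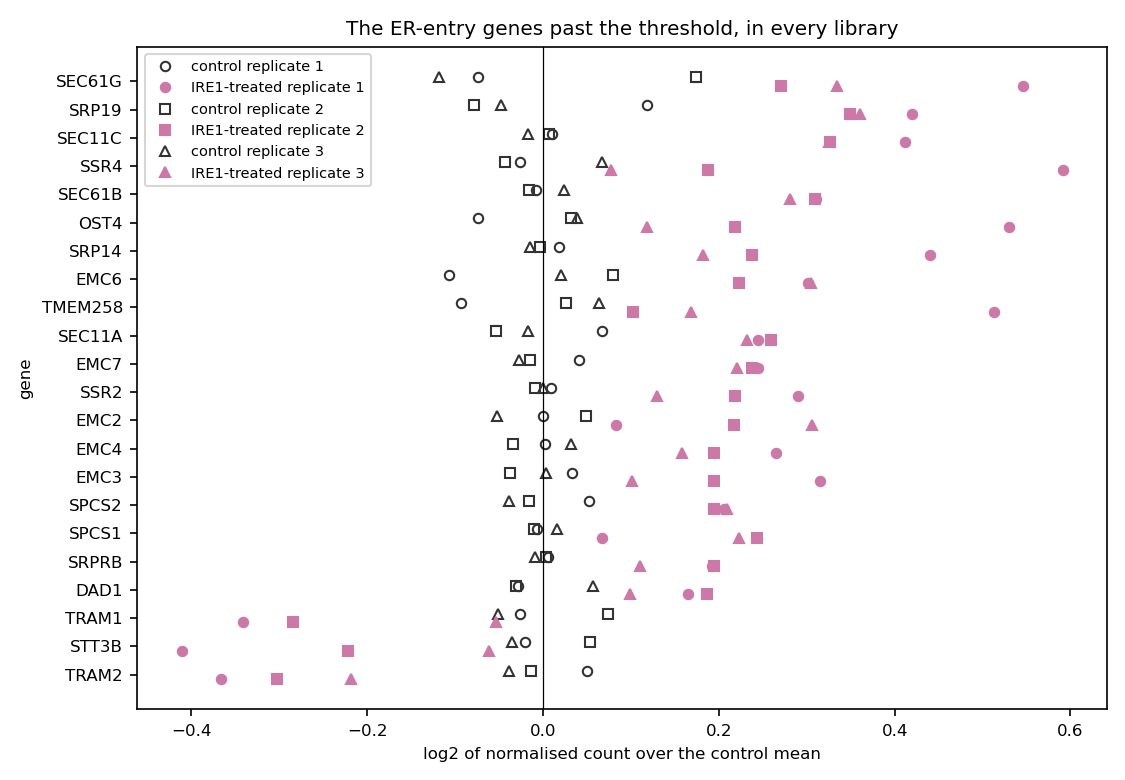
The 22 genes past the threshold in each of the 6 libraries, as the log2 of the normalised count over the mean of the controls. Open symbols are controls and filled symbols IRE1-treated samples, with 1 symbol shape for each replicate number, which names a library and is not stated to mark a pair. TRAM2, SEC11C, SEC61B and EMC7 show a clear gap between the groups, and IRE1-treated replicate 1 stands out in SSR4, OST4 and TMEM258.

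Of the 22 genes, 12 missed the threshold without at least 1 library. STT3B missed the threshold without any 1 of the 3 controls and without IRE1-treated replicate 2, and TRAM1 without control replicate 1 or 2 or IRE1-treated replicate 2. SRPRB, SPCS1 and EMC3 missed it without any 1 control and without IRE1-treated replicate 2, and EMC2 without any library other than IRE1-treated replicate 1. SSR4 missed it without any 1 control, DAD1 without control replicate 1 or 2 or IRE1-treated replicate 2, and TMEM258 without any 1 control or IRE1-treated replicate 1. OST4 missed it without control replicate 1, and SPCS2 and EMC4 without control replicate 2.

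The fold changes of the ER-entry genes fell with transcript length, as those of other genes did. Across the 46 members, Spearman's rho of log2 fold change with canonical transcript length was −0.69, and across 12182 protein-coding genes tested it was −0.646. These are correlations across genes measured in the same 6 libraries and are given as a description. Among members under 1000 bases, 8 of 10 were higher, against 53.9% of all protein-coding genes of that length. From 1000 to under 2000 bases, 5 of 9 were higher, against 28.1%. From 2000 to under 4000 bases, 6 of 16 were higher and 1 lower, against 6.73% and 3.78% of all genes. Of the 11 members of 4000 bases or more, 0 were higher and 2 were lower, against 2.02% and 31.3%. The small subunits SEC61B, SEC61G, SSR4, OST4, DAD1, TMEM258, EMC6 and SEC11C were the higher members of the shortest class, and TRAM2 and STT3B were the lower members of the longest. The higher members of 2000 to under 4000 bases were SRP19, SRPRB, SPCS1, SPCS2, EMC2 and EMC3.

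**Figure D4:**
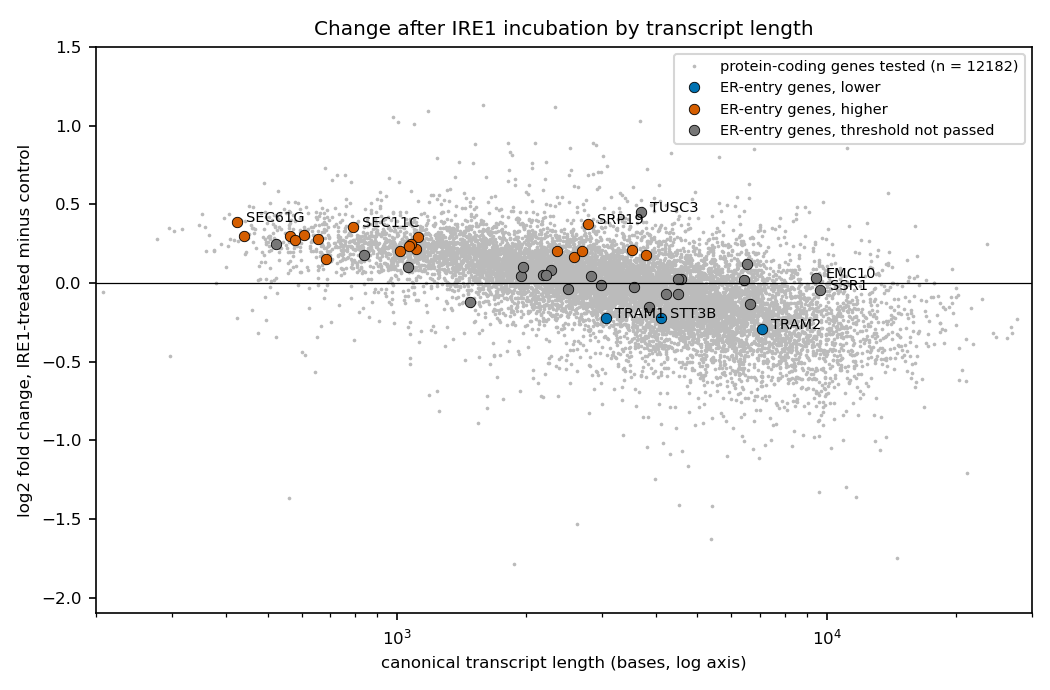
Log2 fold change, IRE1-treated minus control, against the length of the canonical transcript in bases on a log axis. Grey dots are the 12182 protein-coding genes tested and large circles the 46 ER-entry genes, coloured by whether they were higher, lower or past no threshold. The members fall from left to right as the grey dots do, with rho of −0.69 and −0.646.

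The same contrast was fitted with each library corrected for the trend of its counts with length and GC content. The length in this correction was that of the longest annotated transcript, which for some members is far above the canonical length. These lengths are 2054 and 791 bases for SEC11C, 1671 and 608 for SSR4, and 1692 and 578 for TMEM258, but 587 and 564 for SEC61B. Then 12 members were higher and 1 lower, against 7.31% and 4.37% of the 14111 genes in that fit. Of the 12, SEC11C, SPCS1, SPCS2, SRP19, SRPRB and EMC2 were among the 19 higher members without the correction. The other 6 were SEC62, SEC63, SSR1, SPCS3, STT3A and EMC10, members of over 4000 bases whose uncorrected log2 fold changes were −0.05 to 0.12. Their corrected values depend on these annotated lengths, and which transcripts the RNA held was not examined. For SSR1, with a canonical transcript of 9661 bases, the log2 fold change went from −0.05 to 0.23 (adjusted p = 0.0019). Signal peptidase had 4 of 5 members higher with the correction, SPCS3 in place of SEC11A. SEC61B, SEC61G, SSR2, SSR4, SRP14, SEC11A, DAD1, OST4, TMEM258, EMC3, EMC4, EMC6 and EMC7 did not pass the threshold with the correction, with values of −0.04 (DAD1) to 0.20 (SEC61G). TRAM1 was the member that stayed lower (−0.17, adjusted p = 0.0227), while TRAM2 had −0.12 (adjusted p = 0.0634) and STT3B −0.14 (adjusted p = 0.102). SRP19 and SEC11C passed the threshold in every fit tried. A correction with the canonical length, which is much shorter for SEC11C, was not tried. The relation of the uncorrected values to length was described here, that to GC content alone was not, and the cause was not tested.

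The pairs of related subunits were compared as the log2 ratio of counts per kilobase of canonical transcript within each library, which needs no scaling between libraries. The length sets the level of a ratio and not its difference between the groups. SEC61A1 was 113 times SEC61A2 in the controls, MAGT1 122 times TUSC3, TRAM1 9.14 times TRAM2, SEC11C 5.16 times SEC11A, STT3A 2.24 times STT3B, and EMC8 0.868 times EMC9. With the exon union as the length these ratios were 54.0, 113, 6.76, 5.04, 1.66 and 0.806, in the same order of pairs. The STT3A to STT3B log2 ratio was 1.18, 1.11 and 1.19 in the controls and 1.603, 1.39 and 1.26 in the IRE1-treated samples, a mean difference of 0.26. For SEC11C to SEC11A it was 2.31, 2.426 and 2.37 in the controls and 2.53, 2.433 and 2.46 after incubation, a mean difference of 0.11. The highest control and the lowest IRE1-treated value of this ratio nearly touched. Neither pair overlapped between the groups, and both had p = 0.1 in a two-sided exact permutation test, the smallest p that 3 against 3 libraries can give (0.3 after Benjamini-Hochberg adjustment over the 6 pairs). The ratios of the other 4 pairs overlapped, with exact permutation p of 0.2 to 0.9. TRAM1 and TRAM2, both lower, kept a ratio that differed by 0.07 on the log2 scale.

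**Figure D5:**
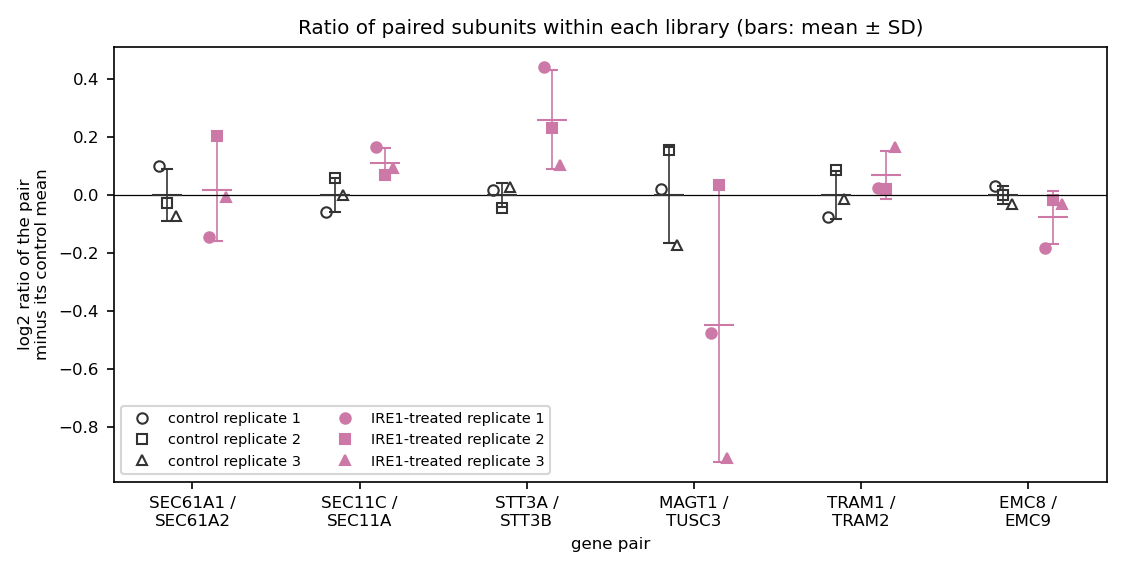
Log2 ratio of the members of each pair in each library, per kilobase of canonical transcript, minus the mean ratio of the 3 controls. Open symbols are controls, filled symbols are IRE1-treated samples, and bars are mean ± SD of 3 libraries. STT3A to STT3B rises above the controls in all 3 IRE1-treated libraries, and MAGT1 to TUSC3 spreads widely.

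CUGCAG was present in the longest transcript of 24 of the 46 members (52.2%), against 86.7% of the 12225 protein-coding genes searched, and in a predicted loop in 8 members (17.4%) against 36.9%. A CUGCAG in a loop of 7 bases was found in 2 members, STT3B and EMC10 (4.35%), against 7.52% of all genes. The 24 members with the motif had a median log2 fold change of 0.02 and a median longest transcript of 3513 bases, with 3 lower and 5 higher. The 22 members without it had a median of 0.245 and 1187.5 bases, with 0 lower and 14 higher. The 3 lower members all held CUGCAG, and in 2 of them, STT3B among these, a match was in a predicted loop. EMC10, with 7 matches, 3 of them in loops, had a log2 fold change of 0.03, and EMC1, with 10 matches, 3 in loops, had −0.14. SPCS1, with 3 matches of which 2 were in loops, was higher. The loop matches of EMC10 and SPCS1 lie in the 3′ UTR of the longest annotated transcript, and whether the RNA held these stretches was not examined. Motif and length moved together in these genes, and their parts in the fold change were not tested separately.

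The lists of other genes of the route held 54 genes, of which 53 were tested, with 10 higher and 2 lower. Over all genes tested, 10.3% were higher and 12.4% lower, and the counts of single lists are to be read beside these shares. Among other proteins of the translocon and of membrane insertion, 4 of 14 tested were higher and 1 lower, with TMEM208 at 0.23 ± 0.06, TMCO1 at 0.23 ± 0.05 and NOMO2 at −0.35 ± 0.07. NOMO2 has near-identical copies, NOMO1 and NOMO3, among which reads may be divided. In the assembly of the dolichol-linked glycan that oligosaccharyltransferase transfers, 3 of 23 were higher, near the share over all genes. These 3 were subunits of dolichol-phosphate mannose synthase: DPM3 at 0.41 ± 0.06, DPM1 at 0.38 ± 0.06, and DPM2. In the GET pathway for tail-anchored proteins, 2 of 7 were higher, GET3 at 0.21 ± 0.05 and SGTA at 0.16 ± 0.05. Of 3 lumenal chaperones of translocation, HSPA5, which encodes BiP, was higher (0.16 ± 0.04). Of 6 genes of N-glycan trimming, UGGT1, the folding sensor that adds glucose back, was lower (−0.29 ± 0.06). SERP2 was at 0 counts in every library. The 10 higher genes of these lists became 5 without control replicate 1, 4 without control replicate 2, 6 without IRE1-treated replicate 2 and 17 without IRE1-treated replicate 3, and the 2 lower became 4 without the last of these. The counts over all genes also changed in fits without single libraries, as given in the last section.

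Because the strand setting of the gene counting is not given in the sources used here, reads of a gene and of a gene overlapping it may not have been told apart. Exons of 27 of the 46 members overlap another annotated gene, among them 11 of the 22 genes past the threshold: SRP19, SRPRB, SEC61G, SSR4, TRAM2, SPCS1, OST4, TMEM258, EMC3, EMC4 and EMC6. Pseudogenes named after the gene exist for 12 members, among them OSTC with 7, SRP14 with 5 and SPCS2 with 4. They may share reads with the gene, which bears on its level as well as on its fold change. SEC61B, SSR2, TRAM1, SEC11A, SEC11C, STT3B, DAD1, EMC2 and EMC7 have neither.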

How the data were processed

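RNA-seq was measured in 6 libraries of NCI-H929 RNA, 3 incubated with recombinant IRE1 and 3 controls, grouped by their GEO labels. For this the authors used Cutadapt 1.12 for trimming and STAR 2.5.3a for alignment to GRCh37 with the Ensembl 87 annotation. They deposited the raw count of each gene, without normalization. The submitters' processing notes also name HTSeq 0.6.1p1 and edgeR 3.24.3. The strand setting of the counting is not given in the sources used here. A CPM table, deposited by the authors, covers 12558 genes. It entered an alternative and no other result. The 5 summary lines that name no gene held 21.4 to 23.2% of all counts and were left out.

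The gene counts were tested with edgeR 4.0.16 (R 4.3.3) in 1 fit of the 6 libraries with filterByExpr, TMM scaling, the quasi-likelihood test, adjusted p by Benjamini-Hochberg and 0.05 as the threshold. The study tested exons, and exon counts were not used here. This fit and those with DESeq2, library size only, the replicate block or the trend removed were tested on simulated data with planted changes. No pair of libraries agreed within sampling noise. The chi-square per gene of a pair was 2.134 to 2.902 among the controls and 3.215 to 10.24 among the IRE1-treated libraries, which were thus more spread. IRE1-treated replicate 3 was nearer to control replicate 3 (7.398) than to IRE1-treated replicate 1 (10.24). The p-values set the difference between the groups against the spread between the 3 libraries of a group.

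Alternatives were DESeq2 1.42.0, library size only, no filter, limma 3.58.1 on log2(CPM + 1), a block for the replicate number, removal of a loess trend (span 0.5) in longest transcript length and GC content, both together, and each library left out. Levels per kilobase were also computed with the longest transcript, without TMM and, chosen after seeing the data, with the canonical transcript; the length classes were also chosen then. The annotation was GENCODE release 44 lifted to GRCh37, with names for 55538 gene identifiers, and hairpins were folded with RNAfold 2.7.2 (Python 3.11.15) and counted where 3 or more pairs closed a loop of 5 to 11 bases. Values in every library are given for members past the threshold, for the highest and lowest member of each complex and for related pairs, and from the other lists the changed genes with the lowest and highest fold change (up to 2 each way) are named. CD3E, KRT8 and DPM2 were named after their values were seen. The members and the lists were chosen with earlier results of these data known.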

Additional observations from a re-analysis of the deposited data

How the results depend on the processing

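The replicate number is not stated to mark a shared preparation. The deviations of same-numbered libraries from their group means correlated at −0.0358, −0.00505 and −0.112. These values show no shared effect but cannot tell whether libraries were prepared together. The fit with the replicate number as a block is given here only. With the block, 16 members were higher and 3 lower, and of all genes 1117 were higher and 1496 lower. SRPRB, DAD1 and EMC2 then missed the threshold. With DESeq2, 18 members were higher and 3 lower, and with limma on the authors' CPM 19 were higher and 4 lower. The shares over all genes are not given for DESeq2 and limma.

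With library size only, 10 members were higher and 5 lower, their median was 0.037, 683 of all genes were higher, 4 of the other genes of the route were higher and 5 lower, and XBP1 passed the threshold at −0.17. Members past no threshold then changed sign, to −0.027 for SRP54 and RPN2, −0.033 for SRP68 and DDOST, −0.060 for SEC63, −0.049 for SPCS3, −0.047 for STT3A and −0.045 for EMC10. Without the filter on low counts, 5 of the other genes were lower.

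With the length and GC trend removed, 12 members were higher and 1 lower, their median was 0.064, 617 of all genes and 1 of the other genes were lower, and XBP1 passed the threshold at −0.20. With the trend removed and the replicate block together, 9 members were higher and 1 lower at a median of 0.064, 887 of all genes were higher and 506 lower, 1 of the other genes was lower, and XBP1 was at −0.20. In both fits SSR1 changed sign to 0.23, SSR3 to 0.036 (0.033 with the block), DDOST to −0.044 (−0.045), DAD1 to −0.037 (−0.038), OSTC to −0.038 (−0.040), MAGT1 to 0.052 (0.052) and EMC1 to 0.040 (0.040). Of these, SSR1 passed the threshold after the change and DAD1 before it. The cause of these changes was not tested.

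With each library left out in turn, 10 to 20 members were higher and 1 to 5 lower, the 10 without control replicate 2, the 20 and the 5 without IRE1-treated replicate 3 and the 1 without control replicate 1, control replicate 2 or IRE1-treated replicate 2. Their median ran from 0.085 to 0.14. Over all genes 638 to 2091 were higher and 972 to 2221 lower, and of the other genes 4 to 17 were higher and 2 to 4 lower. XBP1 ran from −0.11 to −0.062 and BLOC1S1 from −1.47 to −1.28. Values near 0 changed sign in SRP9 (−0.27 to 0.044), SEC61A2 (−0.12 to 0.050), SEC63 (−0.019 to 0.050), SSR3 (−0.11 to 0.021), EMC10 (−0.0045 to 0.072) and SRPRA (−0.042 to 0.011). The median level of the members per kilobase was 66.5 with the longest transcript, 80.3 with the canonical transcript, 34.8 without TMM, and 33.7 to 34.2 without single controls.

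The depth limits TUSC3 and SEC61A2 most among the members, with means of 10.4 and 107 normalised counts in the controls.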
